A study of Mus musculus with 4 samples.

Results

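Kinesins are microtubule motor proteins. Most family members step along microtubules with cargo, whereas others sort chromosomes, build the spindle, cut the daughter cells apart or shorten microtubule ends. In the testis these motors serve mitosis and meiosis in germ cells, and in round spermatids they serve the growth of the flagellum, the shaping of the head and the acrosome, and the delivery of proteins between the nucleus and the cytoplasm. RFX transcription factors bind the X-box motif in promoters of ciliary genes, and transport along the axoneme depends on kinesins.

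The kinesin motor genes examined here were all genes whose symbol began with Kif followed by a digit or the letter c, apart from Kif9, which was not analysed here. An FPKM (fragments per kilobase of transcript, scaled to the mapped fragments of the sample) of at least 1 was required in 2 or more of the 4 samples. Of 41 such symbols among the 22311 in the files, 38 met this condition. Kif3c, Kif12 and Kif26b did not. RNA was taken from whole testes of 24-day-old male mice, from 2 Rfx2-/- samples, called mutant 1 and mutant 2, and from 2 controls, called control 1 and control 2. In the mutants a neomycin-resistance cassette replaced the exons for the DNA-binding domain in every cell, and the line came from a single targeted embryonic stem cell clone. The sample labels call the controls wild type and the strain DBA, while the study's methods give heterozygous controls on a mixed background of C57BL/6 and the strain of the embryonic stem cells. Whether the controls carried 1 targeted allele is therefore uncertain. The samples of a genotype were independent biological samples per the study's methods, and the number of animals in each is not given in the sources used here.

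The targeted gene, Rfx2, was read at 36.7 and 39.8 FPKM in the mutants and at 123 and 89.4 FPKM in the controls (log2 fold change -1.43, SE 0.19, adjusted p = 0.00617, limma), so both mutant samples carried less of the targeted transcript. Marker transcripts of spermatogonia, spermatocytes, spermatids, Sertoli cells, Leydig cells, macrophages, and peritubular and endothelial cells were above 0 in every sample. Lhcgr, Cd163, Ptprc and Kdr did not meet the FPKM condition and were not tested. Of the other markers limma called 0 in either direction, also at an unadjusted p under 0.05. At that unadjusted threshold 6.68% of all genes tested were lower and 2.01% higher. The summed FPKM of Leydig cell markers varied within a genotype, at 454 and 242 in the mutants and 390 and 139 in the controls. Insl3 was the largest part, at 326 and 157 FPKM in the mutants and 266 and 51.5 in the controls. Star and Hsd3b1 were lower in mutant 1 than in mutant 2, while the other Leydig cell markers were higher. Mutant 1 stood apart from mutant 2 in spermatid transcripts. Summed over 12 elongating spermatid markers, the FPKM was 1553 in mutant 1, 7217 in mutant 2, 8458 in control 1 and 5777 in control 2, and all 12 markers were lower in mutant 1 than in both controls. For 7 round spermatid markers the sums were 329, 683, 558 and 489 FPKM in the same order. In RNA from a whole organ, fewer cells of a type and less RNA per cell cannot be told apart.

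Stretches before the RefSeq start sites of 4 kinesin genes are shown because they hold the matches to the X-box that bear on the results below. Capitals mark the match, on the strand of the gene, and the sequences were taken from RefSeq promoters (GRCm38.p6) and placed by exact match in NCBIM37 (mm9). All 4 genes lie on the plus strand. The RefSeq start can differ from the start in the annotation of NCBIM37. There the Kif17 gene spans chr4:137806350-137857882, so that its stretch lies inside the gene and outside annotated exons. The last 17 bases of the Kif6 stretch, with the whole match, lie inside the first exon. All 30 bases of the Kif18a stretch are annotated exon bases outside the Kif18a gene, which starts at chr2:109120895. Kif17 and Kif18a hold the X-box without mismatch, at positions -73 to -61 and -70 to -57 from the RefSeq start. Kif6 holds it at -33 to -20 and Kif11 at -97 to -84, each with 1 mismatch. The motif reads along the gene strand in Kif17 and Kif11 and along the opposite strand in Kif18a and Kif6. Read along the gene strand, as printed, the Kif18a match has 1 mismatch.
Kif17, chr4:137818066-137818146: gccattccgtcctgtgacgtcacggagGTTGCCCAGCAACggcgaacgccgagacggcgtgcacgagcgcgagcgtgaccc
Kif18a, chr2:109120817-109120846: ccgcgcgcGTTGCCACGGCGACgcccagga
Kif6, chr17:49754397-49754477: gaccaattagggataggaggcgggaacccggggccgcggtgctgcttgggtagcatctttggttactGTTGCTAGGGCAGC
Kif11, chr19:37450767-37450796: gccccgtcGTCACCACAGTGACgacacggc

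Promoters of 250 bases before to 50 bases after the start were found for 29 of the 38 kinesin genes. The X-box, with its arms 0 to 3 bases apart and read on both strands, matched without mismatch in 2 of the 29 (6.9%), against 2.44% of the 9139 tested genes with a promoter and 1.53% of 32851 promoters of the same length. With 1 mismatch allowed, which includes the exact matches, it was found in 9 of 29 (31.0%), namely Kif1a, Kif6, Kif11, Kif16b, Kif17, Kif18a, Kif18b, Kif20b and Kif23, against 15.2% of the tested genes and 11.3% of all promoters. GTTGCC, the half-site of the motif, lay in 8 of 29 (27.6%), in 15.9% of the tested genes and in 12.5% of all promoters, and it overlaps the X-box. The cell cycle homology region TTTGAA, on either strand, was present in 13 of 29 kinesin promoters (44.8%), in 14.5% of the tested genes and in 17.9% of all promoters. Of these 13, 11 belonged to the 14 spindle kinesins with a promoter. These matches describe the letters of the windows and show no binding.

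The kinesin genes covered a wide span of levels. By mean control FPKM they ran from 0.983 for Kif26a to 163 for Kif2b, with a median of 7.65. Above 20 FPKM lay 8 genes, led by Kif2b, Kif2a, Kif3b, Kif17 and Kif27. Between 5 and 20 FPKM lay 15 genes, and 15 were under 5 FPKM. Kif2b, a microtubule depolymerase of the spindle, stood alone at the top with 171 and 154 FPKM in the controls. Kif2a followed at 62.3 and 59.7 FPKM. The control samples of Kif3b (53.1 and 49.6) overlapped those of Kif17 (57.0 and 44.0), and those of Kif17 overlapped those of Kif27 (47.6 and 42.9), so the order among these 3 is not resolved. The plot of levels by sample shows that the samples of most genes lay close together, and that Kif6 had the widest separation of genotypes.

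**Figure D1:**
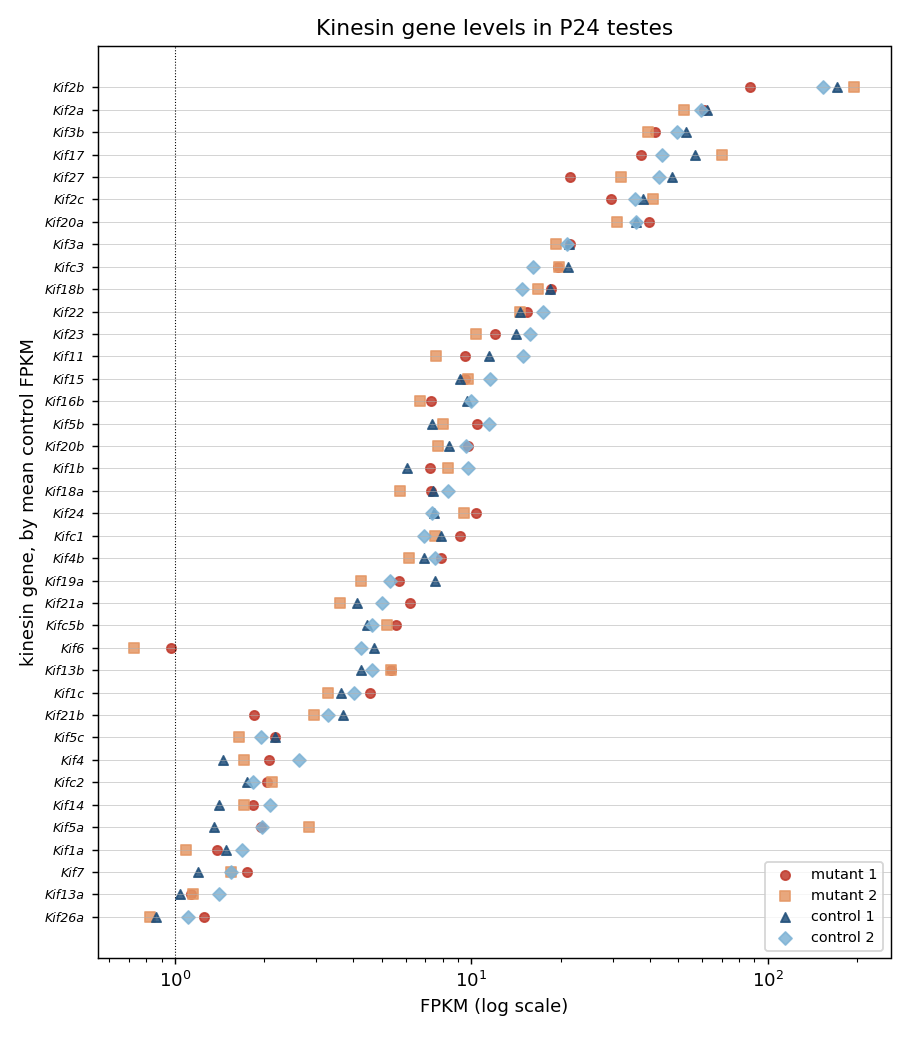
FPKM of the 38 kinesin genes (log scale, horizontal) in each of the 4 samples, with genes ordered by mean control FPKM and the dotted line at an FPKM of 1. Kif6 is the gene whose mutant points lie left of the line, at 0.969 and 0.725, while its control points lie at 4.70 and 4.24.

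Which kinesin genes changed without RFX2 was asked by comparing mutant with control samples across all 12985 genes that met the FPKM condition. At an adjusted p under 0.05, Kif6 was lower and no kinesin gene was higher. This is 1 of 38 (2.63%), against a background of 2.52% lower and 0.308% higher among all genes tested, so the family as a whole was called at the background rate. Kif6 met the FPKM condition only through its control samples, and without that condition its adjusted p was 0.0591 in limma. At an unadjusted p under 0.05, Kif6, Kif27 and Kif11 were lower, 3 of 38 (7.89%) beside 6.68% of all genes, and none was higher, beside 2.01%. Both mutant samples lay below both controls for 9 kinesin genes (23.7%, background 15.2%) and above them for 5 (13.2%, background 16.3%), and for the other 24 the genotypes overlapped. As a group, the 38 genes had a median log2 fold change of -0.045, next to 0.032 over all genes tested. On the log2(FPKM + 1) scale, 34 of the 38 genes had a 95% interval within -1 to 1, and 27 had an estimate within 0.25 of 0.

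**Figure D2:**
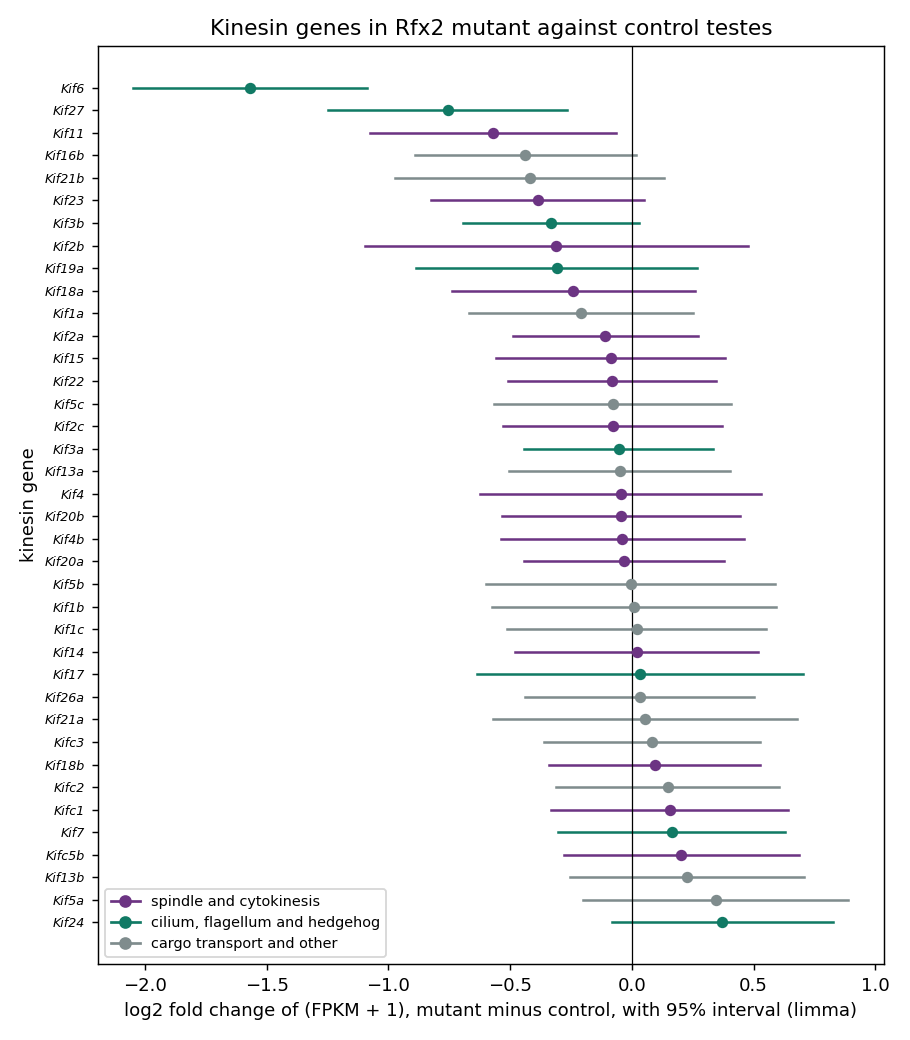
Log2 fold change of FPKM + 1 in mutant against control testes (horizontal, limma) with its 95% interval for each of the 38 kinesin genes, coloured by role. Only the intervals of Kif6 (-2.05 to -1.09), Kif27 (-1.25 to -0.27) and Kif11 (-1.08 to -0.06) lie wholly below 0. Of these, Kif6 alone had an adjusted p under 0.05, and it did not pass without the FPKM condition.

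Among the kinesins of cilia, flagella and Hedgehog signalling, 8 genes passed the FPKM condition, and Kif6 alone passed the test. Both mutants lay below both controls for Kif6, Kif27 and Kif3b and above them for Kif24 and Kif7, beside 15.2% and 16.3% of all genes tested. The other 3 kinesins of this group overlapped. Kif6, a motor linked to motile cilia, read 0.969 FPKM in mutant 1 and 0.725 FPKM in mutant 2, while the controls read 4.70 and 4.24 FPKM. The deposited confidence intervals of the mutants reached at most 1.17 FPKM and those of the controls began at 3.83 FPKM, so the genotypes were separate beyond the error within a sample. The mean was 0.847 ± 0.172 in mutants and 4.47 ± 0.327 in controls (SD, n = 2 each), a 5.28-fold lower level. The log2 fold change was -1.57 (SE 0.21, adjusted p = 0.00545, limma with Benjamini-Hochberg adjustment). Kif6 entered the test only through its control samples, because both mutant samples were under 1 FPKM. With all genes above 0 tested, 19502 in all, its adjusted p was 0.0591, above the threshold.

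The Kif6 gene spans chr17:49754461-50049172 on the plus strand (NCBIM37, mm9), and its longest protein-coding transcript has 23 exons. Rfx2 is on the same chromosome, 6.87 Mb away. Kifc1 and Kifc5b also lie on chromosome 17, at 22.9 and 29.8 Mb from Rfx2. DNA around the targeted allele came from the embryonic stem cells, and its effect on a nearby gene and that of the loss of RFX2 cannot be told apart in this design.

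Kif27, the close relative of the Hedgehog regulator Kif7, lay lower in both mutants. The gene spans chr13:58388877-58456223 on the minus strand, and its promoter held no match to the X-box with up to 1 mismatch. Its FPKM was 21.6 in mutant 1 and 32.1 in mutant 2, and 47.6 and 42.9 in the controls, a mean of 26.9 ± 7.43 against 45.2 ± 3.28 (SD, n = 2 each). The genotypes did not overlap, and the level was 1.69-fold lower, but the log2 fold change of -0.76 (SE 0.21) had an adjusted p of 0.167 in limma and did not pass. Without mutant 2 the log2 fold change was -1.03 with an adjusted p of 0.000129, and without mutant 1 it was -0.48 with an adjusted p of 0.388. Of all genes tested, 7.3% were called lower without mutant 2 and 3.33% without mutant 1. In these fits the remaining mutant sample is assumed to vary like the controls. Kif7 was expressed weakly, at 1.75 and 1.549 FPKM in mutants and 1.20 and 1.547 in controls, so that its genotypes were apart by the third decimal only.

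The motors of intraflagellar transport did not pass the test. Kif3a and Kif3b form the heterotrimeric motor that carries cargo to the ciliary tip. Kif3a stayed between 19.3 and 21.5 FPKM in all 4 samples, and its interval of the log2 fold change was -0.44 to 0.34. Kif3b was at 41.8 and 39.4 FPKM in the mutants and 53.1 and 49.6 in the controls, so that the mutants lay below the controls (log2 fold change -0.33, interval -0.69 to 0.03, adjusted p = 0.681, limma). Kif3c, an alternative partner of Kif3a, was under the FPKM condition.

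Kif17, which in spermatids moves a coactivator of CREM out of the nucleus, was read at 37.3 FPKM in mutant 1, 70.3 in mutant 2, 57.0 in control 1 and 44.0 in control 2. The mutants therefore lay on either side of the controls, and the log2 fold change of 0.03 had an interval from -0.64 to 0.70. Kif19a, which shortens ciliary microtubules, overlapped between genotypes at 5.70 and 4.23 against 7.51 and 5.31 FPKM. Kif24, a depolymerase that restrains cilium assembly at the mother centriole, had the highest log2 fold change of the family. It was at 10.4 and 9.47 FPKM in mutants and 7.50 and 7.37 in controls, without overlap, and its log2 fold change of 0.37 (interval -0.08 to 0.83) had an adjusted p of 0.807 in limma.

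**Figure D3:**
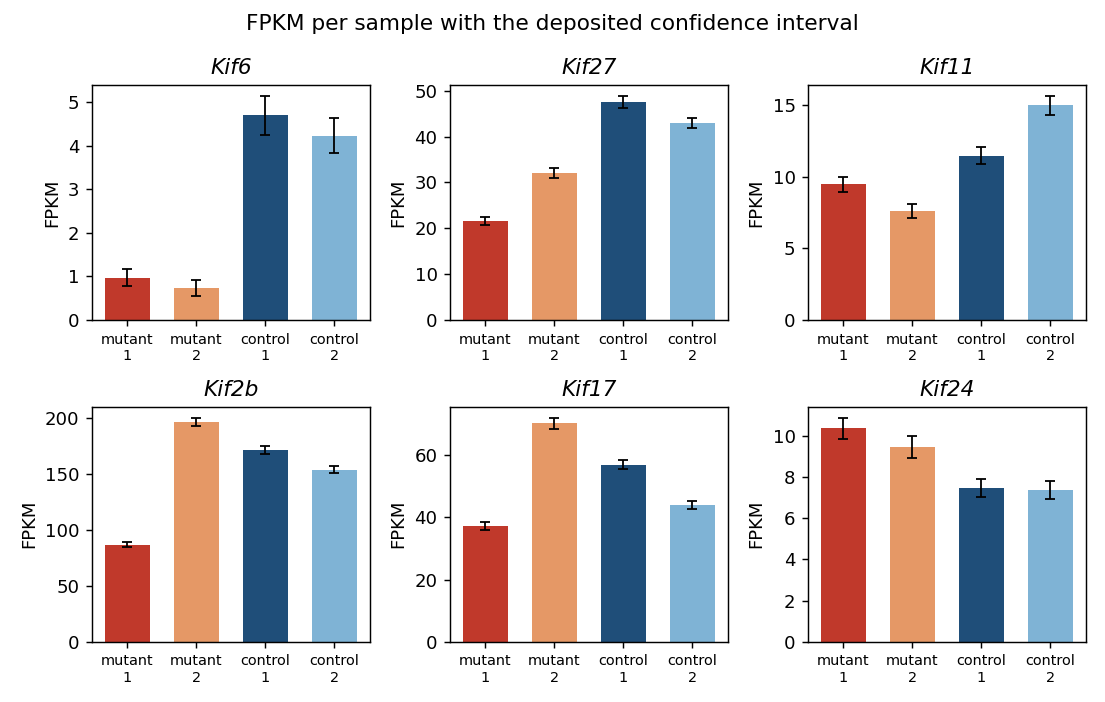
FPKM (vertical axis, from 0) of 6 kinesin genes in each sample, where the error bars are the confidence intervals that the authors deposited. Kif6, Kif27 and Kif11 lie lower in both mutants, Kif24 lies higher in both, and Kif2b (86.9 and 196 in mutants) and Kif17 (37.3 and 70.3) differ between the mutants.

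The 16 kinesins of the spindle and of cytokinesis held most of the family's summed FPKM. Their sum was 326 in mutant 1, 415 in mutant 2, 413 in control 1 and 401 in control 2. Kif2b alone made up 86.9, 196, 171 and 154 FPKM of these sums in the same order. The median FPKM of the 16 genes was 9.634 in mutant 1, 8.725 in mutant 2, 10.32 in control 1 and 13.18 in control 2. None of them passed the test, and 12 of the 16 overlapped between genotypes. Both mutants lay below both controls for Kif11, Kif18a and Kif23 and above them for Kifc5b, beside 15.2% and 16.3% of all genes tested. Kif11 (chr19:37450893-37496349, plus strand), the motor that pushes spindle poles apart, was the gene with the lowest log2 fold change of this group. Its FPKM was 9.48 and 7.60 in the mutants and 11.5 and 15.0 in the controls, a mean of 8.54 ± 1.33 against 13.2 ± 2.47 (SD, n = 2 each). The level was 1.55-fold lower without overlap, yet the log2 fold change of -0.57 (SE 0.22) had an adjusted p of 0.433 in limma. Kif15, which shares the outward-pushing task of Kif11, read 9.55 and 9.71 FPKM in mutants and 9.17 and 11.5 in controls. Kif23, the motor of the centralspindlin complex, also lay lower in both mutants, at 12.04 and 10.4 FPKM against 14.1 and 15.8, with an adjusted p of 0.726 in limma.

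Kif18a, which damps chromosome oscillations at the metaphase plate and holds an exact X-box, was at 7.31 and 5.76 FPKM in mutants and 7.41 and 8.32 in controls, and its interval of the log2 fold change was -0.74 to 0.26. The genotypes did not overlap, but the difference did not pass the test. Kif17, the other gene with an exact X-box, overlapped between genotypes, as given above. Kif20a, needed for cytokinesis, ranged from 31.1 to 39.7 FPKM over the 4 samples. Its relative Kif20b ranged from 7.74 to 9.72 FPKM, and Kif18b from 14.8 to 18.6 FPKM. In each of these 3 the genotypes overlapped.

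Of the chromosome-bound motors, Kif22 read between 14.6 and 17.4 FPKM and Kif4 between 1.45 and 2.63 FPKM, both with overlap. Kif4b, a retrocopy that RefSeq lists as a transcribed pseudogene, was at 7.90 and 6.18 FPKM in mutants and 6.91 and 7.53 in controls. Values of Kif4 and Kif4b are uncertain, because reads can be shared between the copies. The same holds for Kifc1 and Kifc5b, closely related motors that walk to the minus end and focus spindle poles. Kifc1 was at 9.19 and 7.56 FPKM in mutants and 7.87 and 6.93 in controls, and Kifc5b at 5.59 and 5.17 against 4.45 and 4.63. Kif14, which acts at the midbody, was low, between 1.41 and 2.10 FPKM.

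Of the depolymerases of the spindle, Kif2b differed between the mutant samples. It was at 86.9 FPKM in mutant 1 and 196 in mutant 2, on either side of the 171 and 154 FPKM of the controls, and its interval of the log2 fold change, -1.10 to 0.48, was the widest of the family. Without mutant 2 its log2 fold change was -0.89, and without mutant 1 it was 0.27, each time with 1 mutant sample left. Kif2c was at 29.6 and 41.0 FPKM in the mutants and 37.98 and 35.7 in the controls. Kif2a, which also acts at the ciliary base, was steadier, at 61.2 and 52.1 against 62.3 and 59.7 FPKM.

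On the log2(FPKM + 1) scale, Kif2b was 1.17 lower in mutant 1 than in mutant 2, Kif17 was 0.90 lower and Kif27 0.55 lower. These were the only kinesin genes more than 0.5 lower in mutant 1, and Kif21a was the only one more than 0.5 higher. Over all genes tested, this difference had an SD of 0.468 between the mutants and 0.35 between the controls. Round spermatid markers had a median difference from the control mean of -0.68 in mutant 1 and 0.31 in mutant 2, and elongating spermatid markers one of -1.55 and 0.27. By these medians the spermatid markers moved with Kif2b and Kif17, low in mutant 1 and above the control mean in mutant 2. Prm1, Prm2 and Tnp1 went otherwise, with differences of -0.33, -0.18 and -0.36 in mutant 2, and were low in both mutants. The part of the spermatid markers in the values of Kif2b and Kif17 was not tested. Kif6 lay below the control mean by 1.47 in mutant 1 and 1.66 in mutant 2. Kif11 lay below it by 0.43 and 0.71 in the same order, and Kif27 by 1.03 and 0.48. The part of the spermatid markers in the values of Kif6, Kif11 and Kif27 was not tested.

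**Figure D4:**
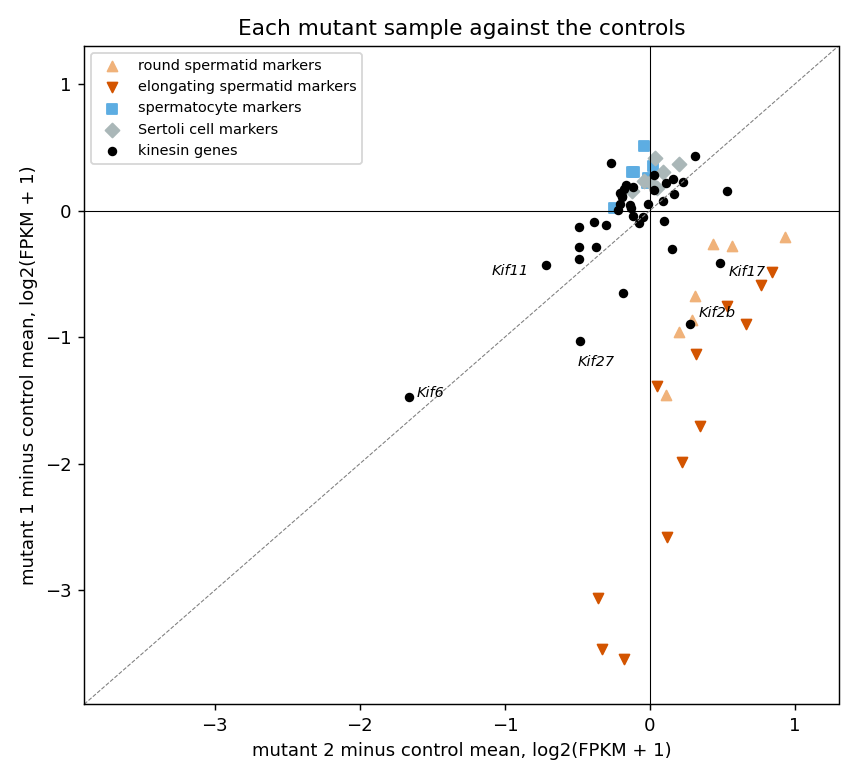
Difference from the control mean of log2(FPKM + 1) in mutant 2 (horizontal) and mutant 1 (vertical) for the 38 kinesin genes (black) and for markers of 4 cell types, with the dashed line where the mutants are equal. Kif6 lies near the dashed line, at -1.66 and -1.47, whereas Kif2b and Kif17 lie below it among the round and elongating spermatid markers.

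The 14 kinesins of cargo transport and other functions included no gene that passed the test. Their median log2 fold change was 0.014, and their summed FPKM lay between 67.7 and 74.2 in the 4 samples. Both mutants lay below both controls for Kif16b, which moves early endosomes, Kif21b, a motor that also restrains microtubule growth, and Kif1a. They lay above both controls for Kif13b and Kifc2, and the other 9 genes overlapped. Of all genes tested, 15.2% lay below and 16.3% above both controls. Kif16b was at 7.30 and 6.70 FPKM against 9.63 and 10.0 in the controls (log2 fold change -0.44, interval -0.89 to 0.02, adjusted p = 0.625, limma). Kif21b was at 1.85 and 2.95 FPKM against 3.68 and 3.29, and its adjusted p was 0.899. Kif21a was at 6.19 and 3.61 FPKM in mutants and 4.13 and 5.01 in controls, with overlap.

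The heavy chains of conventional kinesin, which carry cargo with the kinesin light chains, overlapped between genotypes. Kif5b was the highest of them at 10.5 and 8.02 FPKM in mutants and 7.35 and 11.5 in controls. Kif5c lay between 1.65 and 2.18 FPKM, and Kif5a between 1.35 and 2.83 FPKM. Among the vesicle motors of the Kif1 group, Kif1b and Kif1c also overlapped. Kif1b ranged from 6.09 to 9.72 FPKM, with both extremes in the controls, and Kif1c from 3.29 to 4.55 FPKM. Kif1a, best known from axons, was at 1.39 and 1.09 FPKM against 1.48 and 1.69, and its interval of the log2 fold change, -0.67 to 0.25, includes 0.

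Kif13b, a transporter of membrane cargo, was at 5.37 and 5.36 FPKM in the mutants and 4.26 and 4.62 in the controls, without overlap, and its interval of the log2 fold change was -0.25 to 0.71. Kif13a was at 1.13 and 1.14 FPKM against 1.04 and 1.41. Kifc3, a minus-end motor at cell junctions, was the highest gene of this group at 19.6 and 19.8 FPKM against 21.3 and 16.1. Kifc2 was at 2.04 and 2.13 FPKM against 1.75 and 1.83, and Kif26a, a family member that does not walk, at 1.25 and 0.823 against 0.863 and 1.10.

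Partner genes of the motors were taken from a list of subunits, adaptors and division proteins. Of 42 found in the files, 41 were tested. At an adjusted p under 0.05 in limma 0 were lower and 0 higher, beside 2.52% and 0.308% of all genes tested. At an unadjusted p under 0.05, Tbata was lower and Klc2 was higher, and neither passed after adjustment. The unadjusted shares over all genes tested were 6.68% lower and 2.01% higher. Tbata, a spermatid protein reported to bind Kif17, was at 18.1 and 44.5 FPKM in mutants and 81.7 and 67.1 in controls (log2 fold change -1.35, SE 0.36, adjusted p = 0.140, limma). Its log2 fold change was -0.72 without mutant 1 and -1.98 without mutant 2, each time with 1 mutant sample left. Klc2, a kinesin light chain, was at 66.2 and 59.2 FPKM against 48.7 and 46.0 (log2 fold change 0.40, SE 0.16, adjusted p = 0.486, limma).

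Other partners differed between the mutant samples. Fhl5, the CREM coactivator carried by Kif17, was at 23.6 FPKM in mutant 1 and 74.8 in mutant 2, with 78.2 and 67.7 in the controls. Klc3, a light chain of the sperm tail, was at 1.62 and 3.49 FPKM in mutants and 5.42 and 3.69 in controls. On the log2(FPKM + 1) scale, mutant 1 lay below the control mean by 1.58 for Fhl5 and 1.07 for Klc3. The difference of mutant 2 from the control mean was 0.04 for Fhl5 and -0.29 for Klc3. Kifap3, the third subunit of the Kif3a and Kif3b motor, was at 28.6 and 42.2 FPKM against 44.8 and 43.9. Of the 21 division partners, 17 overlapped between genotypes, while of all genes tested 15.2% lay below and 16.3% above both controls. The division partners had a median log2 fold change of 0.037. Ccnb2, which had the highest mean FPKM of them over the 4 samples, was at 121 and 112 FPKM in mutants and 117.6 and 100.5 in controls.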

How the data were processed

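Reads were placed on mm9 by the authors with TopHat 2.0.6, and the authors estimated with Cufflinks, along the UCSC annotation, the FPKM of each gene in each sample, which were deposited with their confidence bounds. FPKM are normalized for transcript length and depth within a sample. The depth behind single genes is not given by FPKM, and the deposited bounds were used as the error within a sample. For the kinesin genes the half-width of these intervals was 2.7% to 25.4% of the value in the least precise sample of a gene.

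Entries of 1 symbol were summed, and no kinesin symbol had more than 1 entry. Values were analysed as log2(FPKM + 1), on which folds of low genes are understated, with limma 3.58.1 under R 4.3.3 (lmFit, eBayes with a trend), two-sided, with Benjamini-Hochberg adjustment over 12985 genes and a threshold of 0.05. The functions were tested on simulated data. Cuffdiff could not be rerun on FPKM. P-values rest on the spread between 2 samples per genotype, with the variance of each gene drawn by eBayes towards a trend over all genes tested. Full statistics were given for kinesin genes past the threshold and for those without overlap at a 1.5-fold or larger ratio of means. Tables used python 3.11.15 and pandas 2.3.3, and gene positions came from GENCODE on NCBIM37 (mm9). The 9 kinesin genes without a RefSeq promoter were left out of the motif search, which was over 29 genes. Members and lists were chosen with earlier results of these data known. Kif4b was placed with the spindle kinesins after its symbol was seen.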

Additional observations from a re-analysis of the deposited data

How the results depend on the processing

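The number of kinesin genes called lower was 0 without a filter and 0 with an FPKM filter at 5, which leaves 26 of the kinesin genes and does not include Kif6, 2 with robust eBayes and 2 with the replicate block, and it ran from 1 to 3 when each sample was left out, with 3 (Kif6, Kif27 and Kif2b) without mutant 2. Of all genes tested, the share called lower was 1.02% without a filter, 2.27% with an FPKM filter at 5, 3.29% with robust eBayes, 4.04% with the replicate block and 1.29% to 7.3% when each sample was left out, highest without mutant 2, where 3 of 38 kinesin genes is near this share. The number called higher was 0 under every alternative run. The number of partner genes called was 2 with the replicate block (Fhl5 and Tbata) and ran from 0 to 3 when each sample was left out. The log2 fold change of Rfx2 was -1.43 without a filter (adjusted p = 0.0607) and -1.45 with median-ratio scaling (adjusted p = 0.073), both above the threshold of 0.05, and it ran from -1.66 to -1.20 when each sample was left out, with an adjusted p of 0.0628 without control 1. Without a filter 19502 genes were tested and the eBayes trend was fitted anew over them. The cause of these changes was not tested. The adjusted p of Kif6 ran from 6.22e-05 to 0.0496 when each sample was left out and stayed under 0.05 in the other fits that tested it, apart from that without a filter. Kif27 passed with robust eBayes (adjusted p = 0.0365), with the replicate block (adjusted p = 0.0271) and without mutant 2, and not with the crossed replicate block (adjusted p = 0.137). The median of the kinesin genes was 0.016 with quantile normalization, -0.133 without mutant 1 and 0.033 without mutant 2, and the log2 fold change of 21 of the 38 genes changed sign between settings, among them Kif2b (-0.89 to 0.27) and Kif17 (-0.42 to 0.48). Without mutant 1, 19 kinesin genes were below and 9 above both controls (50% and 23.7%, against 32.5% and 26.2% of all genes tested), and without mutant 2, 12 and 14 (31.6% and 36.8%, against 25.7% and 44.0%). The crossed replicate block and the counts of samples apart were chosen after the data were seen. The samples share only a number in the labels: deviations from the genotype means correlated at -0.15 between samples of the same number. The replicate block leaves 1 residual degree of freedom, and the crossed replicate block called 1 kinesin gene lower. The pseudocount set the size for low genes: the log2 fold change of Kif6 was -2.40 with a pseudocount of 0.01.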

Other observations

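The 3 kinesin symbols under the FPKM condition were left out of the comparison. Kif3c was at 0.905 and 0.509 FPKM in the mutants and 0.543 and 0.705 in the controls. Kif26b was at 0.0277 and 0.0432 FPKM in the mutants and 0.0675 and 0.0682 in the controls. Kif12 was listed at 0 in both mutants and control 2 and at 0.017 FPKM in control 1.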
